A study of Mus musculus with 12 samples.

Results

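Activins, bone morphogenetic proteins (BMPs) and growth differentiation factor 15 (GDF15) are secreted signals of the transforming growth factor beta superfamily, and follistatins and gremlin are secreted proteins that bind some of these signals and keep them from their receptors. The 10 genes described here were chosen by name and matched on the gene symbol: the activin chains Inhba and Inhbb, the BMPs Bmp4 and Bmp6, Gdf15, the follistatin family members Fst, Fstl1 and Fstl3, the BMP antagonist Grem1 and the pseudoreceptor Bambi. All 10 were found among the 18050 genes measured, and 9 passed the filter on low counts, Grem1 being the exception. Activins and BMPs bind pairs of type I and type II receptor kinases, which phosphorylate SMAD proteins that then enter the nucleus. Activins share one branch of SMADs with transforming growth factor beta and are known for their part in fibrosis, while BMPs use another branch and switch on the Id genes. GDF15 is a circulating stress signal, released by injured heart muscle among other tissues, whose receptor sits in the hindbrain.

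The mice were wild type, and RNA of the left ventricle was sequenced 7 days after MI, read here as myocardial infarction, or after a sham operation, with 6 libraries in each group. The submitters' processing notes part them into replicates 1 and 2 and replicates 3 to 6, and every result was also computed within each set. The labels give neither strain, age nor sex. They do not say that libraries came from separate animals either, so a p-value here speaks only of how much these libraries vary, and that variation may be technical. The RNA is of the whole ventricle, so fewer cells of a type and less RNA per cell cannot be told apart.

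The estimated counts summed to 18546662 and 18602226 in MI replicates 1 and 2 and to between 14168412 and 14410783 in MI replicates 3 to 6. They summed to 15541334 and 16066681 in sham replicates 1 and 2 and to between 9140353 and 9750764 in sham replicates 3 to 6. Replicates 3 to 6 lay very close together: the biological coefficient of variation, the spread left after counting error, was 0.0208 in MI and 0.0293 in sham, compared with 0.192 in MI and 0.112 in sham for replicates 1 and 2. A gene is therefore called here, and said to rise or fall, only where edgeR's quasi-likelihood test passed a Benjamini-Hochberg adjusted p of 0.05 in the same direction both over 12 libraries and with replicates 3 to 6 of each group summed and counted once. Heart muscle markers were present in all libraries and 6 of 6 fell, with a summed level of 5069 to 8351 CPM (counts scaled to a common library size) in MI replicates 1 and 2 and 19325 to 19790 CPM in MI replicates 3 to 6, against 71393 to 73445 and 50517 to 51312 CPM in the matching sham libraries. Of 6 activated fibroblast markers 5 rose, with a summed level of 25093 to 31320 and 8872 to 8975 CPM in MI, against 1123 to 1292 and 308 to 316 CPM in sham, in replicates 1 and 2 and in replicates 3 to 6. Of 6 macrophage markers 5 rose, and their summed level was 1109 to 1843 and 822 to 836 CPM in MI, against 300 to 320 and 401 to 419 CPM in sham. Lung epithelium markers summed to 158 to 163 CPM in MI replicates 3 to 6 and to at most 0.362 CPM in every other library. Hbb-bs and Hbb-bt, copies of a beta-globin haplotype carried by some mouse strains, had at most 46 and 6 counts in MI replicates 3 to 6, against at least 19940 and 3676 counts in sham replicates 3 to 6. Hba-a1, an alpha-globin gene, averaged 1323 CPM in MI replicates 3 to 6 and 1589 CPM in sham replicates 3 to 6, while Hba-a2, its neighbouring copy, had 16.1 to 37.0 CPM in MI and 731 to 873 CPM in sham. The red blood cell markers other than Hbb-b1 together were at 1355 to 1427 CPM in MI replicates 3 to 6 and 5352 to 5536 CPM in sham replicates 3 to 6. Hbb-b1, a further listed beta-globin gene, is blank in replicates 1 and 2 and so was left out of that sum. It went the other way, with 21400 to 22632 counts in MI replicates 3 to 6 and at most 27.3 counts in sham replicates 3 to 6. The sum is therefore no measure of all red blood cell transcripts. The part of these cell markers, of lung transcripts and of a possible strain difference in the results below was not tested.

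Of the 9 genes that passed the filter, 6 rose in MI ventricles: Inhba, Inhbb, Fst, Fstl1, Fstl3 and Gdf15. By edgeR 0 fell, and Bmp4, Bmp6 and Bambi were not called. Bmp6 alone was lower at an unadjusted p under 0.05 over 12 libraries and 0 genes were with replicates 3 to 6 counted once, and DESeq2 and limma also called 0 of them lower. Across all genes the same rule called 28.1% higher and 29.8% lower, so a call in itself was common in these ventricles. The median log2 fold change of the 9 genes was 2.67, against 0.01 over all genes tested, and no set test was run on this chosen list. In all 6 called genes every MI library lay above every sham library, which held for 21.2% of all genes, while the reverse, every MI library below every sham library, held for 21.3% of all genes and for none of the 9. Over 12 libraries alone, without the second test, 37.9% of all genes were called higher and 38% lower, and the 6 called genes were the same.

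**Figure D1:**
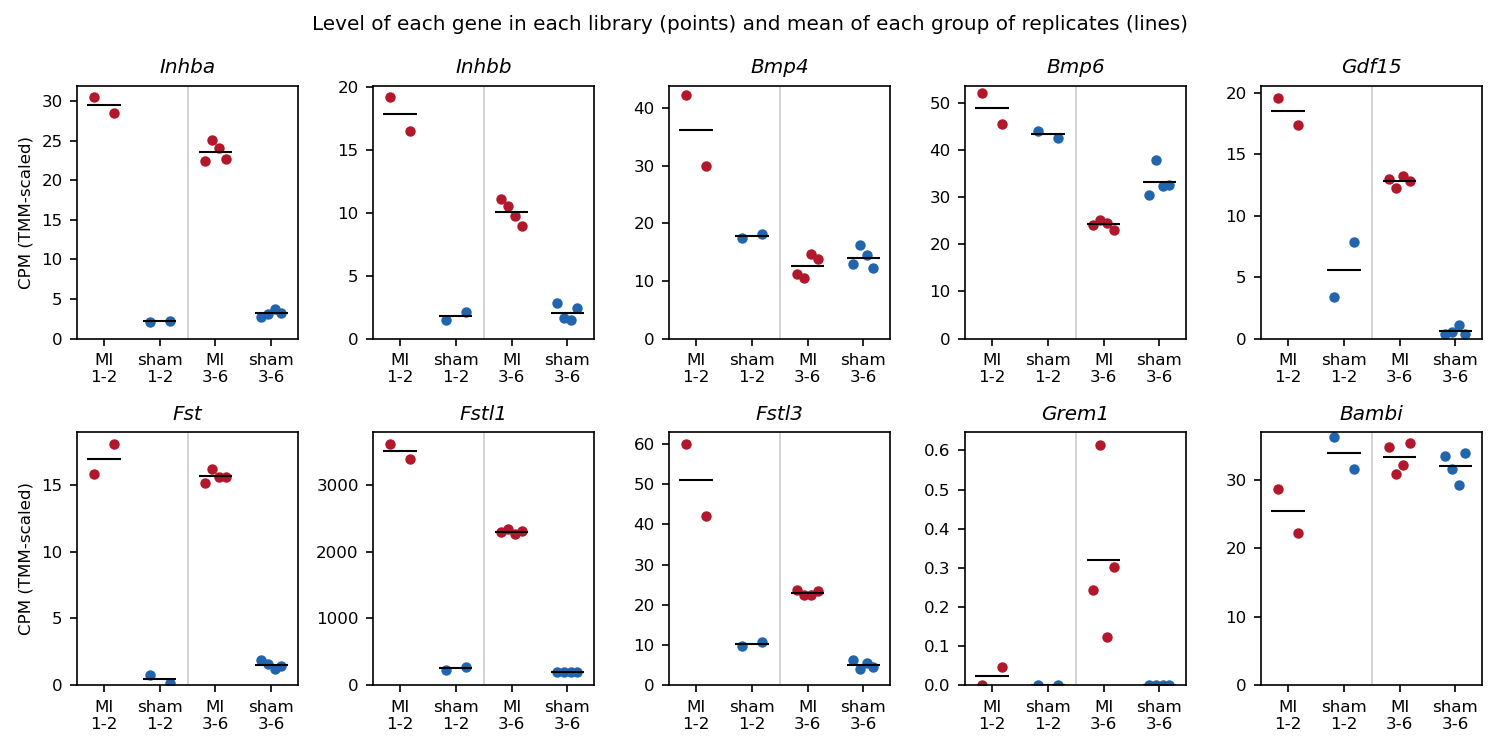
Level of each gene in every library, in TMM-scaled CPM (vertical axis, each panel from 0), with MI left of sham in replicates 1 and 2 and then in replicates 3 to 6. Points are libraries and lines are means; the 6 called genes have no overlap between MI and sham, while Bmp4, Bmp6 and Bambi overlap.

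The DNA just before the start sites of Inhba, Inhbb, Fstl3 and Gdf15 is shown because these genes rose together while their promoters differ widely in base composition. The sequences are the 250 bases upstream of the start site, 5′ to 3′ on the gene's strand, from RefSeq for GRCm38.p6. Lower case is plain sequence, and capitals mark a match to TATAAA, the TATA box core, on either strand.
Inhba, chr13:16011601-16011850, plus strand: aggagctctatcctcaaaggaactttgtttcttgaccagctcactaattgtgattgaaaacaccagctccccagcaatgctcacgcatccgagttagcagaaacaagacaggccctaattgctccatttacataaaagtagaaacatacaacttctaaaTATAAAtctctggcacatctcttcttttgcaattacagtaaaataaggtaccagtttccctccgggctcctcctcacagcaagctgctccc
Inhbb, chr1:119422249-119422498, minus strand: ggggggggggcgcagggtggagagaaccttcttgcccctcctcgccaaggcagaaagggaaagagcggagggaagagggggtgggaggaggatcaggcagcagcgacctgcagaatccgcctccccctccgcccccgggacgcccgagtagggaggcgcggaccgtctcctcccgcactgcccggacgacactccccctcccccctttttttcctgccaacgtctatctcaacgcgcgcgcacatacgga
Fstl3, chr10:79777024-79777273, plus strand: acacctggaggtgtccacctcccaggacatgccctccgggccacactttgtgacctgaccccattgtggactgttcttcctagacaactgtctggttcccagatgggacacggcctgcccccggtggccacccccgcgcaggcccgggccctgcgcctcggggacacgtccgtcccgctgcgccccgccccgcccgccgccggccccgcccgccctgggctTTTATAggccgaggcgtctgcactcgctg
Gdf15, chr8:70632457-70632706, minus strand: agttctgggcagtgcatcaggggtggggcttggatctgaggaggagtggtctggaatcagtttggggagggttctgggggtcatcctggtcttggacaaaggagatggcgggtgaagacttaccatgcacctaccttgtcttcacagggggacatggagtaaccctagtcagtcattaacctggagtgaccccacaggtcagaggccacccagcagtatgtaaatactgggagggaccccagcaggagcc

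The table of promoters, which run from 250 bases before to 50 after the start site, held 8 of the 10 genes; Fst and Bambi were not matched. Over these windows G and C made up 47.7% of the Inhba promoter, 64.3% of that of Inhbb, 70.7% of that of Fstl3 and 57% of that of Gdf15, where the median over 32851 promoters was 52.7%. CpG dinucleotides numbered 7 in Inhba, 23 in Inhbb, 25 in Fstl3 and 1 in Gdf15, with a median of 7. The table lists a second start site for Gdf15, whose window holds 56% G and C and 7 CpG dinucleotides. TATAAA, searched on both strands, was found 91 bases upstream of the start in Inhba and, on the opposite strand, 29 bases upstream in Fstl3, and 13.6% of all promoters hold it. None of the 8 genes' promoters held TGACTCA (the AP-1 site, in 5.2% of promoters), TGATGCAA (a joint site of ATF4 and CHOP, in 0.895%) or GTCTAGAC (a SMAD palindrome, in 0.213%). GGCGCC, a palindrome bound by the SMADs of the BMP branch and present in 11.9% of promoters, was found only in Grem1, 78 bases upstream of the start. These matches describe the letters in these windows and were not tied to binding or to the expression values.

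The activin chains were low in sham ventricles and several-fold higher after MI. Inhba (Entrez 16323; chr13:16011851-16031621, plus strand, GRCm38) codes for the chain that forms activin A. It stood at 30.5 and 28.6 CPM in MI replicates 1 and 2 and at 22.5, 25.2, 24.1 and 22.7 CPM in MI replicates 3 to 6. Sham libraries were at 2.13 and 2.22 CPM in replicates 1 and 2 and at 2.69, 3.11, 3.70 and 3.26 CPM in replicates 3 to 6. The groups did not overlap, and the 12-library fit gave a 9.13-fold rise, 3.19 on the log2 scale (SE 0.15), with an adjusted p of 2.92e-09, and of 0.000789 with replicates 3 to 6 counted once. Inhbb (Entrez 16324; chr1:119415465-119422248, minus strand) codes for the chain of activin B. Its level was 19.2 and 16.5 CPM in MI replicates 1 and 2 and 11.1, 10.5, 9.73 and 8.97 CPM in MI replicates 3 to 6. In sham it was 1.45 and 2.08 CPM in replicates 1 and 2 and 2.81, 1.62, 1.43 and 2.41 CPM in replicates 3 to 6. Here too every MI library was above every sham library, and the log2 fold change came to 2.67 (SE 0.22), with an adjusted p of 3.37e-07, and of 0.0015 counted once. Inha, whose alpha chain turns activin chains into inhibins, was not called (log2 fold change 0.29, SE 0.17).

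Gdf15 (Entrez 23886; chr8:70629393-70632456, minus strand) rose in both sets but from unlike sham levels. It had 19.6 and 17.4 CPM in MI replicates 1 and 2 and 12.9, 12.2, 13.3 and 12.8 CPM in MI replicates 3 to 6. Sham replicates 1 and 2 had 3.35 and 7.86 CPM and sham replicates 3 to 6 had 0.351, 0.497, 1.08 and 0.362 CPM. The sham values of replicates 3 to 6 rest on 3, 4, 9 and 3 counts, those of replicates 1 and 2 on 44 and 106 counts. The MI libraries all lay above the sham libraries, and the log2 fold change over 12 libraries came to 2.99 (SE 0.43), with an adjusted p of 4.51e-05, or 2.49 with replicates 3 to 6 counted once (adjusted p = 0.0189). The second test was not passed without sham replicate 1 (log2 fold change 2.34, adjusted p = 0.0740), and without sham replicate 2 its log2 fold change was 3.22 (adjusted p = 0.0149). Within replicates 1 and 2 the log2 fold change was 1.70 (SE 0.37), a 3.25-fold difference, and within replicates 3 to 6 it was 4.51 (SE 0.19), a 22.8-fold difference.

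Neither BMP ligand gave the same values in the 2 sets. By edgeR the difference between the sets passed for both over 12 libraries, as it did for 55% of all genes. With replicates 3 to 6 counted once it passed for neither (adjusted p = 0.0795 for Bmp4 and 0.103 for Bmp6). Bmp4 (Entrez 12159; chr14:46383520-46390669, minus strand), a ligand best known from development, had 42.3 and 30.0 CPM in MI replicates 1 and 2 against 17.5 and 18.2 CPM in sham replicates 1 and 2. In replicates 3 to 6 it had 11.3, 10.6, 14.7 and 13.8 CPM in MI and 13.0, 16.3, 14.6 and 12.2 CPM in sham, and those groups overlapped. The log2 fold change was 1.00 in replicates 1 and 2 alone (adjusted p = 0.00512), -0.11 in replicates 3 to 6 alone (adjusted p = 0.34) and 0.27 over 12 libraries (SE 0.20, adjusted p = 0.25). Bmp6 (Entrez 12161; chr13:38345107-38500302, plus strand), a ligand that also sets hepcidin production in the liver, had 52.1 and 45.5 CPM in MI replicates 1 and 2, against 44.1 and 42.5 CPM in sham. In replicates 3 to 6 it had 24.0, 25.2, 24.5 and 23.1 CPM in MI, below each of the sham values of 30.3, 37.8, 32.4 and 32.6 CPM. Its log2 fold change was 0.15 in replicates 1 and 2 alone (adjusted p = 0.29), -0.41 in replicates 3 to 6 alone (adjusted p = 7.98e-07) and -0.24 over 12 libraries (SE 0.11, adjusted p = 0.0596). Exons of Txndc5 on the opposite strand overlap 5.74% of the Bmp6 exons, and strandedness is not stated. Txndc5 was assigned 3386 to 9969 counts in MI and 619 to 1470 in sham libraries, and its part in the Bmp6 level was not tested. Of 6 endothelial markers 2 fell. Their summed level was 559 to 588 and 965 to 990 CPM in MI, against 924 to 1052 and 798 to 835 CPM in sham, in replicates 1 and 2 and in replicates 3 to 6. Of 6 epicardial and mesothelial markers 3 rose. In the same order their summed level was 132 to 238 and 31.6 to 33.8 CPM in MI, against 48.6 to 51.7 and 33.6 to 39.3 CPM in sham. The part of either marker list in the BMP values was not tested. Scaling by library size alone, which moves the median of all genes up by 0.41, gave 0.67 for Bmp4 (adjusted p = 0.0095; 1.05 counted once, adjusted p = 0.0208) and turned Bmp6 to 0.17 (adjusted p = 0.18). Under that scaling Bmp4 is called higher by both tests, which makes 7 genes called higher. Over all genes that scaling also called more genes higher than lower, as given at the end.

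Among the 9 tested genes, Fst and Fstl1 of the follistatin family had the 2 largest log2 fold changes over 12 libraries, while in replicates 3 to 6 alone that of Gdf15 was larger than either. Fst (Entrez 14313; chr13:114452290-114458951, minus strand) codes for follistatin, which wraps activin dimers and blocks their receptor contacts. Fst was at 15.9 and 18.1 CPM in MI replicates 1 and 2 and 15.2, 16.2, 15.6 and 15.6 CPM in MI replicates 3 to 6. It was at 0.761 and 0.148 CPM in sham replicates 1 and 2 and 1.87, 1.62, 1.20 and 1.45 CPM in sham replicates 3 to 6. The sham levels rest on 10, 2, 16, 13, 10 and 12 counts. The groups were far apart, 14.8-fold or 3.89 on the log2 scale (SE 0.29), with an adjusted p of 1.86e-07, and of 0.00229 counted once. Fstl3 (Entrez 83554; chr10:79777272-79782630, plus strand) codes for a second activin binder of the same build. It had 60.1 and 42.2 CPM in MI replicates 1 and 2 and 23.7, 22.4, 22.4 and 23.3 CPM in MI replicates 3 to 6. Its sham values were 9.74 and 10.7 CPM in sham replicates 1 and 2 and 6.20, 3.98, 5.50 and 4.47 CPM in sham replicates 3 to 6. The groups did not overlap, and the rise was 4.71-fold, or 2.24 on the log2 scale (SE 0.12), with an adjusted p of 7.49e-09, and of 0.000928 counted once. Exons of Prss57 on the opposite strand overlap 47.3% of the Fstl3 exons and strandedness is not stated, so the Fstl3 level is uncertain, although Prss57 itself was assigned at most 8 counts in any library.

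Fstl1 (Entrez 14314; chr16:37776873-37836514, plus strand) codes for a secreted glycoprotein that carries a follistatin-like domain and is made by fibroblasts and other mesenchymal cells. Its values were the highest of the 10 genes, with 3623 and 3397 CPM in MI replicates 1 and 2 and 2298, 2342, 2275 and 2312 CPM in MI replicates 3 to 6. Fstl1 had 227 and 276 CPM in sham replicates 1 and 2 and 200.4, 192, 196 and 198 CPM in sham replicates 3 to 6. It rose 12.4-fold, or 3.64 on the log2 scale (SE 0.10), with an adjusted p of 5.56e-11, and of 0.000911 counted once. The groups did not overlap, and by TPM, which counts transcripts per length and library, Fstl1 ranked between 45 and 146 of all genes in the MI libraries and between 1218 and 1676 in the sham libraries. Of 6 fibroblast markers 4 rose beside it, with a summed level of 3313 to 3623 and 3963 to 4061 CPM in MI, against 1268 to 1314 and 2743 to 2879 CPM in sham, for replicates 1 and 2 and for replicates 3 to 6.

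Grem1 (Entrez 23892; chr2:113746164-113758646, minus strand) codes for gremlin, an antagonist of BMPs. It was assigned 0 and 1 counts in MI replicates 1 and 2 and 4, 10, 2 and 5 counts in MI replicates 3 to 6, against 0 in every sham library except an estimate of 0.48 counts in sham replicate 4. Grem1 had 21 counts over MI replicates 3 to 6 and 0, after rounding, over the matching sham libraries. In that set its level was at least 3.54-fold higher in MI than the limit of 3 counts over the sham group allows. Replicates 1 and 2 gave no such bound. MI replicates 3 to 6 are the libraries with the lung epithelium markers given above, whose part here was not tested. With no filter on low counts Grem1 passed over 12 libraries (adjusted p = 0.0103) but not with replicates 3 to 6 counted once (adjusted p = 0.0757), so it is not called. Bambi (Entrez 68010; chr18:3507923-3516404, plus strand) codes for a membrane protein that resembles a type I receptor but lacks the kinase. It had 28.7 and 22.2 CPM in MI replicates 1 and 2 and 34.9, 30.8, 32.2 and 35.3 CPM in MI replicates 3 to 6. The sham libraries gave 36.2 and 31.6 CPM in sham replicates 1 and 2 and 33.5, 31.6, 29.3 and 33.9 CPM in sham replicates 3 to 6. MI and sham libraries overlapped, and the log2 fold change came to -0.10 (SE 0.10), with an adjusted p of 0.35. That sign depends on the scaling, since library size alone gave 0.30 (adjusted p = 0.00933 over 12 libraries, not passed with replicates 3 to 6 counted once, adjusted p = 0.39).

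Levels can be set against each other between genes only per transcript length, as TPM. The sets are kept apart here, since their levels differ. Fstl1 stood far above the other genes everywhere, at 2265 and 2224 TPM in MI replicates 1 and 2 and 1257 to 1290 TPM in MI replicates 3 to 6, against 93.8 and 109 TPM in sham replicates 1 and 2 and 67.9 to 70.5 TPM in sham replicates 3 to 6. In MI replicates 1 and 2 Fstl3 came next (70.3 and 51.6 TPM), then Bmp4 (47.1 and 35.2) and Bmp6 (39.3 and 36.0), whose values overlapped, and Gdf15 (32.6 and 30.4) and Bambi (32.1 and 25.9), which overlapped too. Fst, Inhba and Inhbb followed in that order without overlap, all at or below 16.4 TPM. In MI replicates 3 to 6 the order was Bambi (30.4 to 34.8 TPM), Fstl3 (23.1 to 24.4), Gdf15 (17.5 to 18.9) and Bmp6 (15.3 to 16.8), with no overlap between these ranges in TPM. Bmp4 (10.4 to 14.7 TPM) and Fst (11.5 to 12.5) overlapped below them, above Inhba (6.86 to 7.69) and Inhbb (4.16 to 5.17). In sham libraries the order was Bambi, Bmp6 and Bmp4 in both sets without overlap, at 26.8 and 22.3, 21.97 and 20.3, and 12.8 and 13.0 TPM in replicates 1 and 2, and at 18.1 to 21.4, 12.9 to 16.2, and 7.61 to 10.3 TPM in replicates 3 to 6. Fstl3 (7.52 and 7.94 TPM) and Gdf15 (3.69 and 8.30) overlapped in sham replicates 1 and 2 and were apart in sham replicates 3 to 6 (2.64 to 4.08 and 0.34 to 0.93 TPM). Inhba, Inhbb and Fst were each under 1 TPM in every sham library. Gdf15 thus lay below Bmp6 in both sham sets and in MI replicates 1 and 2, and above it in MI replicates 3 to 6. On the TPM scale, which is not TMM-scaled, Bambi averaged 31.6 TPM in MI and 21.6 TPM in sham and Bmp6 averaged 23.3 TPM in MI and 16.5 TPM in sham (n = 6 each), the opposite side from their TMM-scaled fold changes.

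Activin chains and their binders were both higher after MI. Inhba and Inhbb together reached 20.8 and 19.6 TPM in MI replicates 1 and 2 and 11.1 to 12.6 TPM in MI replicates 3 to 6, against 0.98 and 1.17 TPM in sham replicates 1 and 2 and 1.10 to 1.36 TPM in sham replicates 3 to 6. Fst and Fstl3 together reached 83.9 and 68.0 TPM in MI replicates 1 and 2 and 35.0 to 36.0 TPM in MI replicates 3 to 6, against 7.92 and 8.02 TPM in sham replicates 1 and 2 and 3.45 to 5.02 TPM in sham replicates 3 to 6. The ratio of binder to chain transcripts was 4.03 and 3.46 in MI replicates 1 and 2, below the 8.08 and 6.85 of the matching sham libraries, whereas in replicates 3 to 6 it was 2.83 to 3.23 in MI and 2.76 to 3.69 in sham and overlapped. Fstl3, whose level is uncertain, makes up most of the binder sum. The ratio of Fst to Inhba, which leaves out both Fstl3 and Inhbb, went the other way in replicates 1 and 2. It was 1.28 and 1.56 in MI and 0.833 and 0.167 in sham, where Fst rests on 10 and 2 counts. In replicates 3 to 6 that ratio was 1.60 to 1.72 in MI and 0.808 to 1.81 in sham and overlapped. Fst alone was at 11.5 to 12.5 TPM in MI replicates 3 to 6 and 0.59 to 0.94 TPM in sham replicates 3 to 6, to be set beside the sums of both chains above. These ratios are of transcripts, and were described and not tested.

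**Figure D2:**
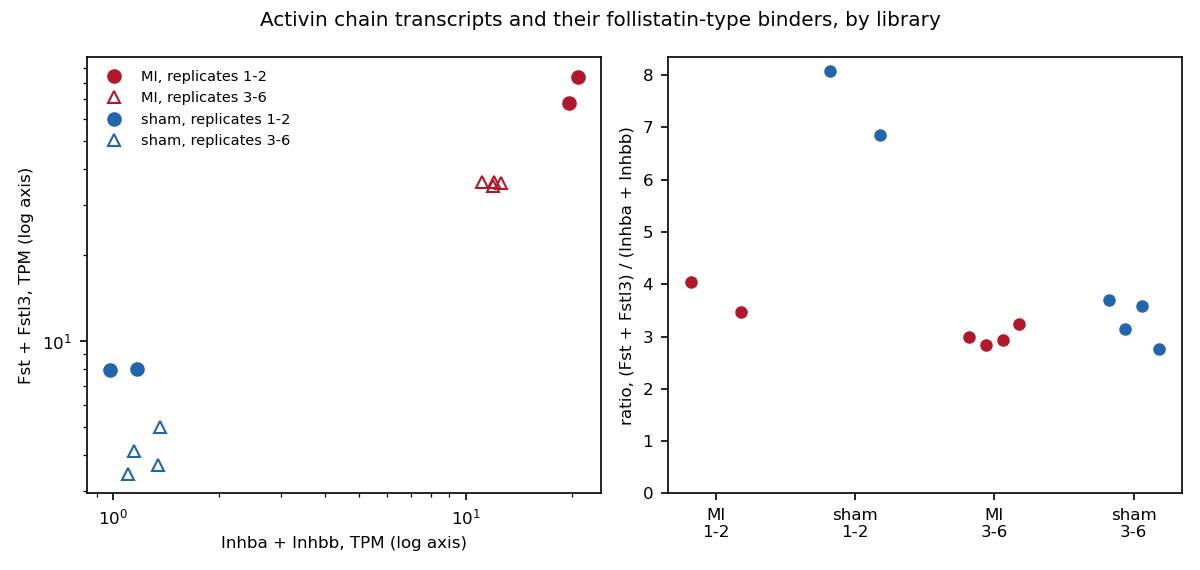
Left, summed TPM of Fst and Fstl3 (vertical) against summed TPM of Inhba and Inhbb (horizontal), both on log axes, each point a library. Right, their ratio per library from 0, with MI left of sham in each set; MI lies below sham in replicates 1 and 2 and overlaps it in replicates 3 to 6.

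The size of the MI effect was compared between the sets by an interaction of set and group. Over 12 libraries the difference passed for 8 of the 9 genes, Fstl3 being the exception (difference in log2 fold change -0.13, adjusted p = 0.64), but it passed for 55% of all genes too. With replicates 3 to 6 counted once it passed for 10.4% of all genes and for 0 of the 9 by edgeR, 6 of them having an unadjusted p under 0.05. Inhba (3.74 in replicates 1 and 2 and 2.93 in replicates 3 to 6), Inhbb (3.32 and 2.32) and Fst (5.19 and 3.39) had the smaller log2 fold change in replicates 3 to 6. Fstl1 (3.78 and 3.60) and Fstl3 (2.30 and 2.23) were close in the 2 sets, and Gdf15 (1.70 and 4.51) had the larger log2 fold change in replicates 3 to 6. Each of the 6 called genes passed as higher within each set alone. Bmp4 also passed as higher in replicates 1 and 2, where 34.1% of all genes were called higher and 32.9% lower. Bmp6 passed as lower in replicates 3 to 6, where 42.3% of all genes were called higher and 39.6% lower. The sets differ in marker levels as well, and MI replicates 3 to 6 had higher heart muscle markers than MI replicates 1 and 2, as given above. The part of this in the difference between sets was not tested.

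**Figure D3:**
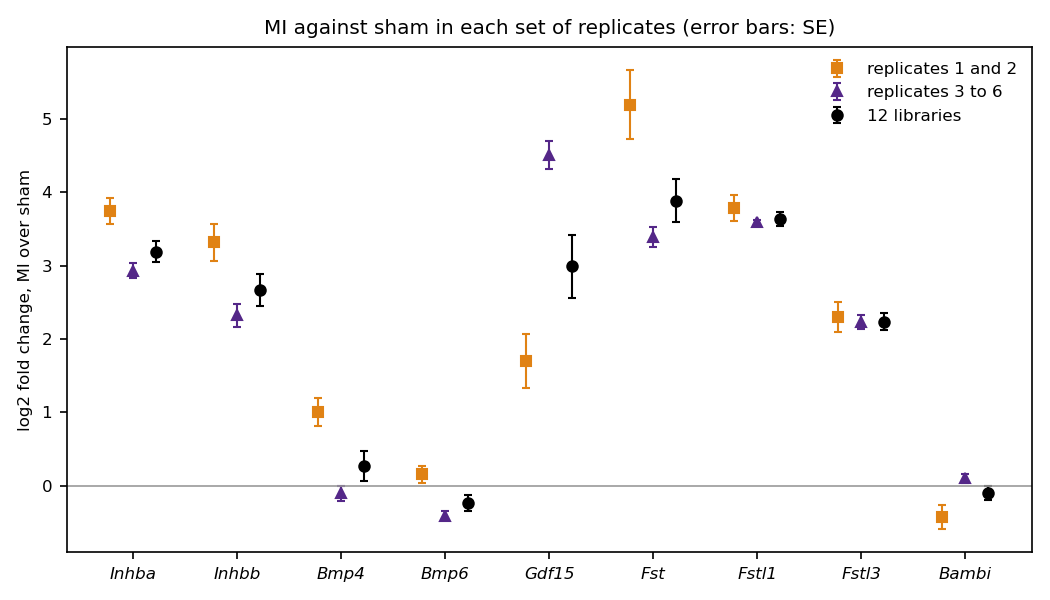
Log2 fold change of MI over sham for the 9 genes that passed the filter, in replicates 1 and 2 (squares), in replicates 3 to 6 (triangles) and over 12 libraries (circles), with SE bars. Fstl1 and Fstl3 nearly coincide in both sets, Gdf15 is higher in replicates 3 to 6, and Bmp4, Bmp6 and Bambi lie on either side of 0.

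Other genes of the pathway moved in mixed directions. Of 13 tested ligands of the superfamily outside the 10 genes, 5 rose, 2 fell and 6 were not called, with a median log2 fold change of 0.48. Across all genes the same rule called 28.1% higher and 29.8% lower. Gdf3, a ligand made by activated macrophages among other cells, averaged 3.88 ± 0.98 and 5.16 ± 0.31 CPM in MI, against 0.225 ± 0.0042 and 0.0914 ± 0.116 CPM in sham (SD; n = 2 for replicates 1 and 2, n = 4 for replicates 3 to 6; log2 fold change 4.88, SE 0.35). The Gdf3 sham values rest on at most 2.94 estimated counts per library, so the size of its fold change is uncertain. Gdf6, a BMP-type ligand of joints and skeleton, averaged 40.4 ± 11.2 and 20.9 ± 1.83 CPM in MI, against 0.526 ± 0.0099 and 1.91 ± 0.637 CPM in sham (log2 fold change 4.31, SE 0.38). Bmp3, which opposes other BMPs, had a log2 fold change of 3.63 (SE 0.37) at no more than 1.60 CPM on average in either set. Named after their values were seen, Bmp2 (1.31) and Gdf11 (1.20) also rose, and Bmp7 (-1.03) and Mstn (-1.52), the gene of the muscle growth inhibitor myostatin, fell on the log2 scale. Mstn had 4 to 23 counts per library and did not pass the filter in replicates 1 and 2 alone. Bmp7 had a log2 fold change of -1.95 in replicates 1 and 2 alone and -0.35 in replicates 3 to 6 alone (adjusted p = 0.23), and was not called with library size alone (-0.62, adjusted p = 0.0522).

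Of 12 tested receptors and co-receptors 3 rose, 5 fell and 4 were not called (median log2 fold change 0.04), counts to be read beside the 28.1% of all genes called higher and 29.8% called lower. The type I receptor gene Acvr1 rose, averaging 49.1 ± 0.28 and 36.7 ± 2.01 CPM in MI against 18.6 ± 0.83 and 17.7 ± 1.08 CPM in sham in replicates 1 and 2 and in replicates 3 to 6 (log2 fold change 1.17, SE 0.07). Tgfbr3, the co-receptor betaglycan (log2 fold change -1.13, SE 0.10), and Rgma, a BMP co-receptor (log2 fold change -1.26, SE 0.12), fell, and Eng (endoglin), the most abundant receptor gene not called, was at 0.02. The activin type II receptors Acvr2a (-0.35) and Acvr2b (-0.88), named after their values were seen, fell too, but neither was called when scaling used library size alone, where Acvr2a turned to 0.06 and the list had 6 called higher and 2 lower. Among 10 SMADs and SMAD ubiquitin ligases, Smad1 of the BMP branch (0.69, SE 0.08) and the inhibitory Smad7 (0.43, SE 0.09) rose on the log2 scale, 0 fell and 8 were not called, among them the shared partner Smad4 (0.06). With library size alone 8 of these 10 were called higher. That scaling moves the median of all genes up by 0.41 and called more of all genes higher than lower, as given at the end. The receptor and SMAD counts under it are to be read beside that.

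Secreted antagonists, other secreted binding proteins and target genes outside the 10 also moved both ways. Of 10 other tested genes of secreted antagonists and binding proteins 4 rose, 1 fell and 5 were not called (median log2 fold change 0.24). The list holds BMP binders such as Kcp, which need not be antagonists, so these are not counts of antagonists alone. For comparison here and for the target genes below, 28.1% of all genes were called higher and 29.8% lower. Nbl1, a BMP antagonist also called DAN, rose (log2 fold change 1.28, SE 0.16), averaging 133 ± 44.6 and 38.3 ± 2.05 CPM in MI against 37.9 ± 5.93 and 19.3 ± 1.77 CPM in sham (SD; n = 2 for replicates 1 and 2, n = 4 for replicates 3 to 6). Kcp, whose product binds BMPs, rose by 0.48 (SE 0.10) on the log2 scale, and Dand5, of the same family as Nbl1, fell (log2 fold change -1.68, SE 0.10). Twsg1, a BMP-binding gene and the most abundant gene of this list not called, was at 0.22. Of 9 tested BMP target genes 5 rose and 1 fell (median log2 fold change 0.43). Smad6, Smad7 and Smad9 are in this list and in the SMAD list above, and the rise of Smad7 counts in both. Id4 (1.69, SE 0.20) and Id2 (1.58, SE 0.18) rose on the log2 scale while Id1 fell (-0.65, SE 0.09), and Id3, named after its values were seen, rose by 0.99, so the Id genes did not move as a block. Id1 was not called with library size alone (-0.24, counted once not passed).

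Genes of the integrated stress response, a programme that raises Gdf15 in many cell types, were listed for comparison with it. Of 14 tested 7 rose, 1 fell and 6 were not called (median log2 fold change 0.86), where 28.1% of all genes rose and 29.8% fell. Phgdh (2.30, SE 0.14) and Asns (2.33, SE 0.17), enzymes of serine and asparagine synthesis, and the transcription factor gene Atf3 (2.79, SE 0.27) rose on the log2 scale. Atf3 varied widely in MI replicates 1 and 2, at 42.3 ± 30.2 CPM, against 4.87 ± 1.71 CPM in sham replicates 1 and 2 (SD, n = 2 each). The central factor Atf4 was not called (0.24). Ddit3, the gene of CHOP, named after its values were seen, was not called either (log2 fold change 0.89, adjusted p = 0.000606 over 12 libraries and 0.163 counted once). With library size alone both were called higher (0.65 for Atf4 and 1.31 for Ddit3), and 10 of the 14 were. The median of all genes moves up by 0.41 under that scaling, and more of all genes were called higher than lower, as given at the end. Ddit3 averaged 32.0 ± 5.53 CPM in MI and 28.6 ± 7.16 CPM in sham in replicates 1 and 2 (SD, n = 2 each), and 65.1 ± 2.24 CPM in MI and 27.1 ± 1.45 CPM in sham in replicates 3 to 6 (SD, n = 4 each). The list did not share 1 pattern between the sets: the log2 fold change in replicates 1 and 2 and in replicates 3 to 6 was 0.14 and 1.31 for Ddit3 and 1.77 and 2.71 for Asns, but 3.10 and 2.64 for Atf3, 2.42 and 2.25 for Phgdh and 0.51 and 0.15 for Atf4.

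**Figure D4:**
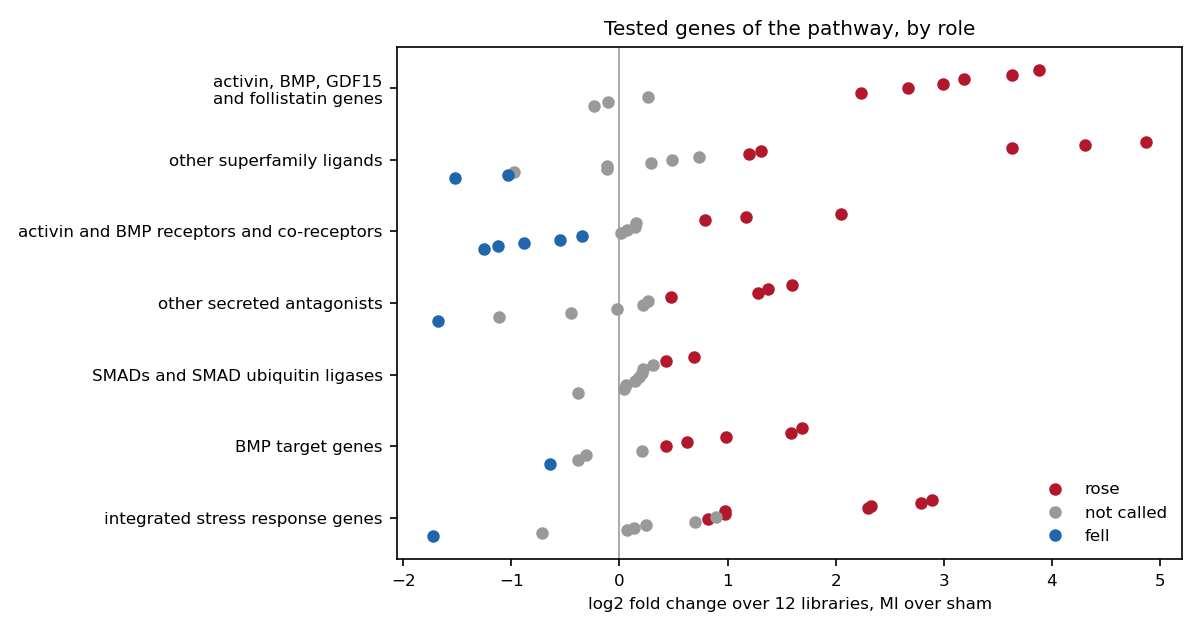
Log2 fold change of MI over sham over 12 libraries (horizontal) for every tested gene of each list, one point a gene, spread vertically only for legibility. Red rose and blue fell by both tests, grey was not called; 6 of the 9 tested activin, BMP, GDF15 and follistatin genes are red.

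For each gene the other genes with the most similar course over the 12 libraries were found by the root mean square (RMS) difference of centred log2 CPM. For Inhba they were Serpinb1a (RMS 0.162), a protease inhibitor gene, and Sfrp1 (0.181), a secreted Wnt antagonist. For Inhbb they were Ifi202b (0.235) and Pik3ap1 (0.235), an interferon-inducible gene and a kinase adaptor gene. Fstl1 lay nearest to Ccn2 (0.117), the gene of connective tissue growth factor, and Actg2 (0.152), a smooth muscle actin, and Fstl3 to Fzd1 (0.188), a Wnt receptor, and Fkbp10 (0.193), a collagen chaperone. Fst had no very close companion, with Hal at 0.42 and Nox4, a gene of an oxidase that makes hydrogen peroxide, at 0.44. Among the 9 tested genes Gdf15 had the largest RMS, with the natriuretic peptide gene Nppa at 0.47 and Itih4 at 0.53. The sham levels of Fst and Gdf15 rest on as few as 2 and 3 counts, and counting noise widens the RMS. Its size is therefore no measure of how distinct 1 member is beside another. Nppa averaged 5337 and 4997 CPM in MI, against 2136 and 166 CPM in sham, in replicates 1 and 2 and in replicates 3 to 6. Bmp4 was nearest to Trafd1 (0.183) and Bicral (0.187), Bmp6 to Zbtb4 (0.0973) and Bmyc (0.109), and Bambi to Gjc1 (0.0804) and Ap4b1 (0.0928). Exons of other genes cover 23.2% of Ccn2, 11.3% of Bicral, 62.8% of Bmyc, 61.5% of Nppa and 82.4% of Ap4b1, so those levels are uncertain.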

How the data were processed

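Left ventricle RNA of 12 mouse libraries was analysed, 6 MI and 6 sham, at 7 days. The authors deposited expected counts per gene, unscaled and fractional, beside TPM, which is relative to all transcripts of a library, and FPKM, which is relative to gene length and library depth, for 18050 genes, and a second deposited table of FPKM for replicates 1 and 2. The submitters' processing notes name Bowtie2, RSEM and DESeq2 without versions for replicates 3 to 6, no tool for replicates 1 and 2, and the GRCm38 build for all. Per the labels' protocols mRNA was selected with oligo(dT), and whether libraries were stranded is not stated.

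After rounding, edgeR 4.0.16 in R 4.3.3 was run on the counts (quasi-likelihood F test, TMM scaling, filterByExpr, set as covariate, Benjamini-Hochberg over all genes tested, threshold 0.05). The 12-library fit tested 13654 genes. SE is the log2 fold change over the square root of F. 425 genes blank in replicates 1 and 2 were left out. The 3-count limit used for Grem1 covers counting error only. The second FPKM table gave log2 ratios within 0.13 of the main table for the members above 0. Correlations of same-numbered MI and sham libraries ran from -0.0479 to 0.0640. Replicates 1 and 2 gave the same value, and the other replicates lay very close together within each group. These correlations therefore cannot tell whether numbers pair samples, and the main fits treat the libraries as unpaired. Alternatives used DESeq2 1.42.0 and limma 3.58.1 on log2(FPKM + 1) and log2(FPKM + 0.1). Fits were tested on simulated data.

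The members, lists and tests were chosen with earlier results of these data known. The values of 1 listed antagonist are not reported here, and the counts of its list leave it out. Named are all 10 members, from each pathway list the 3 called genes with the smallest adjusted p and the most abundant gene not called, and for each tested member the 2 genes nearest in pattern with a mean of at least 10 CPM. Gene positions are from GENCODE for GRCm38 and promoters from RefSeq.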

Additional observations from a re-analysis of the deposited data

Results flagged for a closer look

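Fst in MI replicate 2, at 18.1 CPM, lay above the other 5 MI libraries by a wide gap relative to their narrow spread. The next highest was MI replicate 4 at 16.2 CPM. It was the single such library among 19 groups examined, and chance gives about 1 in 20.

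The MI effect differed between the sets over 12 libraries for 8 genes, the difference being the log2 fold change in replicates 3 to 6 minus that in replicates 1 and 2. It was -0.87 for Inhba, -1.06 for Inhbb, -1.86 for Fst, -0.25 for Fstl1, -1.17 for Bmp4 and -0.63 for Bmp6, and 2.75 for Gdf15 and 0.47 for Bambi. None of the 8 passed with replicates 3 to 6 counted once, where the lowest adjusted p was 0.0702, for Gdf15. Without sham replicate 1 the Fst difference was -3.41 and without sham replicate 2 it was -1.11, the 2 libraries with its lowest CPM. The Gdf15 difference was 2.01 without sham replicate 2.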

How the results depend on the processing

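The 6 called genes kept their direction and passed the 12-library test under all 22 alternatives tried, with log2 fold changes of 2.01 to 3.74 for Inhba, 1.63 to 3.32 for Inhbb, 2.55 to 5.19 for Fst, 3.58 to 4.05 for Fstl1, 2.16 to 2.65 for Fstl3 and 1.70 to 4.51 for Gdf15. The lowest values of Inhba, Inhbb and Fst came from log2(FPKM + 1), where the pseudocount shrinks low genes. The fit with a replicate block called 6 of these genes higher and 0 lower. For comparison, the main 12-library fit called 37.9% of all genes higher and 38% lower.

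Library size alone called 7779 of 13654 genes higher and 3208 lower over 12 libraries. With replicates 3 to 6 counted once it called 6430 of 13970 genes higher and 2534 lower. These counts are of each test apart. The list counts given above for this scaling need both tests, so the 2 kinds of count are not alike. Genes lower numbered 3280 with log2(FPKM + 1) and 3266 with log2(FPKM + 0.1). Bmp6 turned to 0.17 with library size alone (0.38 counted once), 0.15 and 0.16 with log2(FPKM + 1) and log2(FPKM + 0.1), and 0.15 in replicates 1 and 2 alone. Bambi turned to 0.30 with library size alone (0.17 counted once), 0.29 and 0.30 on the FPKM scales, 0.10 in replicates 3 to 6 alone and 0.0055 without MI replicate 2 (lowest -0.15, without sham replicate 5). Bmp4 turned to -0.11 in replicates 3 to 6 alone, and the Fstl3 difference between sets to 0.19 without MI replicate 1 (lowest -0.34, without MI replicate 2). Replicates 3 to 6 alone called 1 member lower, Bmp6. With replicates 3 to 6 counted once, 1451 genes and 0 members differed between sets. The causes were not tested.

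Leaving out each library gave 5079 to 5337 genes higher and 4959 to 5225 lower over 12 libraries, with 6 members higher and 0 to 1 lower; Bmp6 was the one lower, without MI replicate 1, sham replicate 1 or sham replicate 2. Counted once, 2301 to 3979 genes were higher (2301 without sham replicate 1, 2523 without sham replicate 2) and 2810 to 4149 lower, with 5 to 6 members higher. In an alternative added after seeing the data, both tests together called 5 to 6 members higher and 0 lower, Gdf15 being lost without sham replicate 1. With every library in, both tests together called 28.1% of all genes higher and 29.8% lower. The difference between sets passed for 6972 to 7947 genes and 5 to 8 members, the lowest without sham replicate 1. Depth limits Grem1, and the sham levels of Gdf15 and Fst. Among the other ligands it limits Mstn and the sham levels of Gdf3 and Bmp3.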
